A study of Homo sapiens with 36 samples.

Results

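Clone 13 of the human small-cell lung cancer line H446, carrying a non-targeting guide RNA, was compared with the other control clones of the same study, clones 3 and 10, which carry a non-targeting guide RNA as well. H446 is an established line of the SCLC-N subtype, whose cells express the neural transcription factor NEUROD1. The comparison used the 9 poly(A) RNA libraries of control cells given the solvent DMSO for 24 h, 3 of clone 13 against 3 of clone 3 and 3 of clone 10, out of 36 libraries in the series. The same contrast was repeated in the 9 libraries of these clones given 1 µM JQ1 for 24 h. JQ1 is an inhibitor of the BET bromodomain family, readers of histone acetylation. The remaining libraries came from 3 clones (12, 15 and 2-1) in which NEUROD1 had been knocked out. The labels give the control clones the genotype WT and their libraries as biological replicates, and no label states how cultures of a clone were separated. The 3 libraries of clone 13 share the genome of 1 clone, so every p-value below measures the spread between libraries of 3 clones and not what guide or genotype does.

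Cells grown from 1 founder can differ from sister clones in copy number, chromatin state and gene usage, and such differences are shared by every library of the clone. In small-cell lung cancer the neuroendocrine state is marked by granins, synaptic vesicle proteins and neural adhesion molecules, and lineage factors such as NEUROD1, POU2F3 and YAP1 are used to name subtypes. Clustered protocadherins, adhesion proteins of neurons, are known for a choice of isoforms that differs from cell to cell.

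A gene was called when clone 13 differed from clone 3 and from clone 10 in the same direction, each with an adjusted p under 0.05 (limma, Benjamini-Hochberg over all genes tested), and all 3 of its libraries lay outside all 6 others. Values are the authors' normalized counts, and differences are of mean log2(normalized count + 1), which understates the change of low genes. Of 14778 genes with a mean of at least 10 normalized counts over the 9 DMSO libraries, 2303 were called higher (15.6%) and 2190 lower (14.8%) in clone 13. The distance to the nearer of the other clones was at least 2-fold for 289 of the higher genes (1.96%) and 195 of the lower ones (1.32%). The median distance of a called gene was 0.37 on the log2 scale, and the median difference over all genes was 0.01. By the same rule clone 3 had 2175 genes higher and 2453 lower than both of its sister clones, 676 of them at least 2-fold. Clone 10 had 979 higher and 1210 lower, 184 of them at least 2-fold, against 484 at least 2-fold for clone 13. These 3 counts rest on the same 9 libraries.

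**Figure D1:**
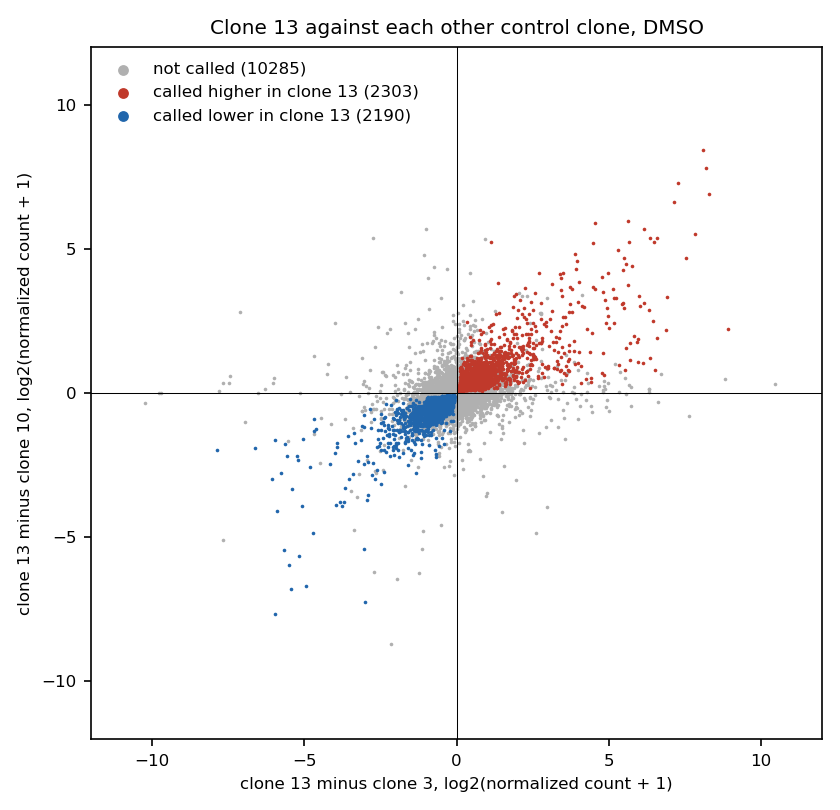
Each point is a gene tested with DMSO, with clone 13 minus clone 3 on the horizontal axis and clone 13 minus clone 10 on the vertical axis, both as differences of mean log2(normalized count + 1) over 3 libraries per clone. The 2303 genes called higher (red) fill the upper right and the 2190 called lower (blue) the lower left, with the genes that were not called in grey.

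The subtype factors were examined first. NEUROD1, the factor that names the subtype, had 6056, 6417 and 6516 normalized counts in clone 13, against 6209, 6278 and 6523 in clone 3 and 5423, 5134 and 5426 in clone 10. Clone 13 overlapped clone 3 and lay above clone 10, so NEUROD1 was not called (log2 difference 0.00, SE 0.03, from clone 3 and 0.25, SE 0.03, from clone 10). With DMSO its mean normalized count was 0.360 in knockout clone 12, 0 in clone 15 and 5.25 in clone 2-1. YAP1, a Hippo pathway effector, fell under the minimum for a test, with 0 in the 3 libraries of clone 13, in those of clone 3 and in 2 of clone 10. POU2F3, the tuft cell factor, was not analysed here.

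The DMSO control libraries held 13743706 to 17608539 reads, those of clone 13 between 15892252 and 17060705. Markers of airway epithelium summed to 9.17 to 19.99 normalized counts in clone 13, 12.2 to 22.3 in clone 3 and 7.11 to 16.6 in clone 10, and 4 of their 8 genes in the table had no read in these 9 libraries. Leukocyte markers summed to 58.7 to 84.9 in clone 13, 56.0 to 90.4 in clone 3 and 30.2 to 42.0 in clone 10, most of it CD68, a lysosomal protein. PTPRC, the leukocyte surface protein CD45, had 12.8, 12.6 and 22.0 normalized counts in clone 13 and at most 2.04 in clones 3 and 10, and its mean was under the minimum for a test. CD14, a receptor of monocytes, was the leukocyte marker that was called, and it was lower, with 5.50, 0.967 and 3.997 normalized counts in clone 13, against 10.2, 18.1 and 22.3 in clone 3 and 11.6, 7.81 and 10.3 in clone 10. Its call was lost in 4 alternatives. Among the JQ1 libraries, the first of clone 13 stood apart in these markers. It held 80.4 normalized counts of CEACAM6, an adhesion molecule of glandular epithelium, and 23.5 of the surfactant protein SFTPA2, whereas CEACAM6 had no read in the other 17 control libraries. The main counts that use this library are given with and without it, a comparison added after the values were seen. The 3 JQ1 libraries of clone 13 also differed from each other more than those of clones 3 or 10. Chi-square per degree of freedom against counting noise was 12.98 for libraries 1 and 2, 7.71 for 2 and 3, and 5.03 for 1 and 3. Within clones 3 and 10 with JQ1 it was at most 4.04.

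The genes furthest above both other clones were mostly silent or nearly so in clones 3 and 10. TEX15, a germ cell protein needed for meiosis, had 329, 362 and 342 normalized counts in clone 13, against 0, 1.06 and 0 in clone 3 and 0 in all 3 libraries of clone 10. With 1075 reads in clone 13 and 1 in the 6 other libraries, the ratio was 2030, with a 95% interval of 363 to 80100 for counting error only. MOXD1, a monooxygenase related to dopamine beta-hydroxylase, had 299.7, 284 and 281 normalized counts in clone 13, against 0 in all 3 libraries of clone 3 and 0, 0 and 1.15 in clone 10 (902 reads and 1 read, ratio 1700, interval 304 to 67200). Both were thus well expressed in every clone 13 library and all but absent elsewhere among the controls. PCP4, a calmodulin-binding peptide of neurons, had 153, 151 and 158 normalized counts in clone 13 and no read in clones 3 and 10, at least 302-fold higher against a floor of 3 reads over the 6 libraries. MTUS1, a microtubule-associated protein, had 163, 128 and 136 normalized counts in clone 13, against 0 in all 3 libraries of clone 3 and 0, 1.95 and 0 in clone 10 (2 reads in the 6 other libraries, ratio 420, interval 116 to 3480). CACNG2, known as stargazin, an auxiliary subunit of AMPA-type glutamate receptors, had 54.99, 60.9 and 71.95 normalized counts in clone 13, against 0, 0 and 1.06 in clone 3 and 0 in all 3 libraries of clone 10 (195 reads and 1 read, ratio 367, interval 65.2 to 14600). For these 5 genes, the lowest clone 13 library lay many times above the highest of the other 6.

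GPR126, an adhesion G-protein-coupled receptor of Schwann cell myelination, had 324, 269 and 343 normalized counts in clone 13, against 0 in all 3 libraries of clone 3 and 3.55, 2.93 and 0 in clone 10. Its relative GPR56, a receptor of cortical development, had 99.9, 124 and 131 normalized counts in clone 13, against 0, 2.13 and 0 in clone 3 and 2.67, 1.95 and 1.15 in clone 10 (log2 difference from clone 10, the nearer clone, 5.38, SE 0.54). ST8SIA2, the enzyme that adds polysialic acid to NCAM, had 201, 262 and 218 normalized counts in clone 13, against 0 in all 3 libraries of clone 3 and 0.888, 8.78 and 5.72 in clone 10 (5.50 from clone 10, SE 0.53). None of the 3 exceeded 8.78 normalized counts in any library of clones 3 and 10. COL13A1, a transmembrane collagen, had 103, 89.9 and 91.9 normalized counts in clone 13, against 0 in all 3 libraries of clone 3 and 2.67, 0 and 2.29 in clone 10. CSMD1, a membrane protein with complement control domains, had 135, 130.5 and 126 normalized counts in clone 13, against 2.04, 0 and 1.06 in clone 3 and 0, 3.90 and 2.29 in clone 10. WSCD2 had 151, 159 and 171 normalized counts in clone 13, against 5.09, 4.25 and 0 in clone 3 and 1.78, 3.90 and 4.58 in clone 10.

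Other genes with large rises had reads in both other clones. ITPR3, an endoplasmic reticulum calcium release channel, had 701, 697 and 688 normalized counts in clone 13, against 14.3, 12.8 and 24.4 in clone 3 and 17.8, 14.6 and 37.8 in clone 10 (log2 difference 5.32 from clone 3, SE 0.29, and 4.95 from clone 10, SE 0.29, larger adjusted p = 2.86e-10, limma). ZNF618, a zinc finger protein, had 541, 665 and 649.5 normalized counts in clone 13, against 5.09, 4.25 and 9.54 in clone 3 and 16.9, 11.7 and 18.3 in clone 10 (5.24 from clone 10, the nearer clone, SE 0.27, larger adjusted p = 7e-11, limma). TUSC3, a subunit of the oligosaccharyltransferase that glycosylates proteins, had 523, 469 and 499.6 normalized counts in clone 13, against 0, 5.32 and 2.12 in clone 3 and 17.8, 16.6 and 20.6 in clone 10. DYSF, the membrane repair protein dysferlin, had 305, 342 and 336 normalized counts in clone 13, against 5.09, 3.19 and 13.8 in clone 3 and 7.996, 7.81 and 25.2 in clone 10. TUSC3 lacked reads in 1 library of clone 3, and the other 3 genes had reads in all 9 libraries.

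Among the largest falls were X-linked cancer-testis antigens, a metabolic enzyme and signalling proteins. SSX1, a cancer-testis antigen, had 0, 0 and 6.995 normalized counts in clone 13, against 122, 134 and 114 in clone 3 and 404, 389 and 417 in clone 10 (log2 difference -5.96 from clone 3, SE 0.53, and -7.66 from clone 10, SE 0.53, larger adjusted p = 2.8e-08, limma). SSX6, of the same family, had 4.58, 6.77 and 4.996 normalized counts in clone 13, against 91.7, 80.8 and 82.7 in clone 3 and 98.6, 83.9 and 108 in clone 10. The SSX genes are near-identical copies whose reads can be shared, so their single values are uncertain. CPT1A, which loads long-chain fatty acids for import into mitochondria, had 0.917, 0 and 3.997 normalized counts in clone 13, against 98.8, 96.8 and 92.3 in clone 3 and 131, 124 and 143 in clone 10 (-5.51 from clone 3, SE 0.41, and -5.97 from clone 10, SE 0.41). LGR5, the R-spondin receptor of stem cells, had 3.67, 2.90 and 4.996 normalized counts in clone 13, against 218, 191 and 209 in clone 3 and 534, 559 and 496 in clone 10 (-5.44 from clone 3, SE 0.17, and -6.79 from clone 10, SE 0.17). FSTL5, a secreted follistatin-like protein, had 10.1, 13.5 and 7.99 normalized counts in clone 13, against 545, 608 and 574 in clone 3 and 479.8, 457 and 553 in clone 10. In each case the clone 13 libraries lay under all 6 others, as a call required.

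The remaining falls ranged from near absence in clone 13 to a moderate level. SLC38A5, a glutamine transporter, had 2.75, 1.93 and 2.998 normalized counts in clone 13, against 103, 106 and 114 in clone 3 and 381, 359 and 362 in clone 10. ESRRB, an orphan nuclear receptor of pluripotent cells, had 28.4, 30.9 and 33.98 normalized counts in clone 13, against 251, 237 and 236 in clone 3 and 375, 361 and 372 in clone 10. ZNF536, a zinc finger repressor of neuronal differentiation, had 43.1, 47.4 and 45.97 normalized counts in clone 13, against 292, 284 and 267 in clone 3 and 286, 294 and 295 in clone 10. Clones 3 and 10 were close to each other for ZNF536 and further apart for ESRRB and SLC38A5. CELSR3, an atypical cadherin of axon guidance, had 159.5, 145 and 119 normalized counts in clone 13, against 605, 652 and 664 in clone 3 and 668, 611 and 640 in clone 10 (-2.18 from both, SE 0.09 each). FNDC1, a fibronectin type III protein, had 42.2, 71.5 and 46.97 normalized counts in clone 13, against 2951, 2806 and 2962 in clone 3 and 411, 349 and 322 in clone 10, a range in which clone 3 stood far above clone 10. CPA4, a secreted carboxypeptidase, had 24.8, 21.3 and 23.98 normalized counts in clone 13, against 237, 244 and 288 in clone 3 and 162, 165 and 177 in clone 10. RGAG4 (a gene derived from a retrotransposon Gag), FAM133A and HEPACAM2 (an immunoglobulin-domain adhesion protein) were also among the 15, at 3.19 ± 0.417, 59.1 ± 12.1 and 33.6 ± 6.69 normalized counts in clone 13 (mean ± SD, n = 3 libraries). Their means in clone 3 were 139.8 ± 13.5, 407 ± 13.7 and 189 ± 6.55, and in clone 10 62.03 ± 7.45, 422 ± 29.3 and 306 ± 16.4, in the same order.

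**Figure D2:**
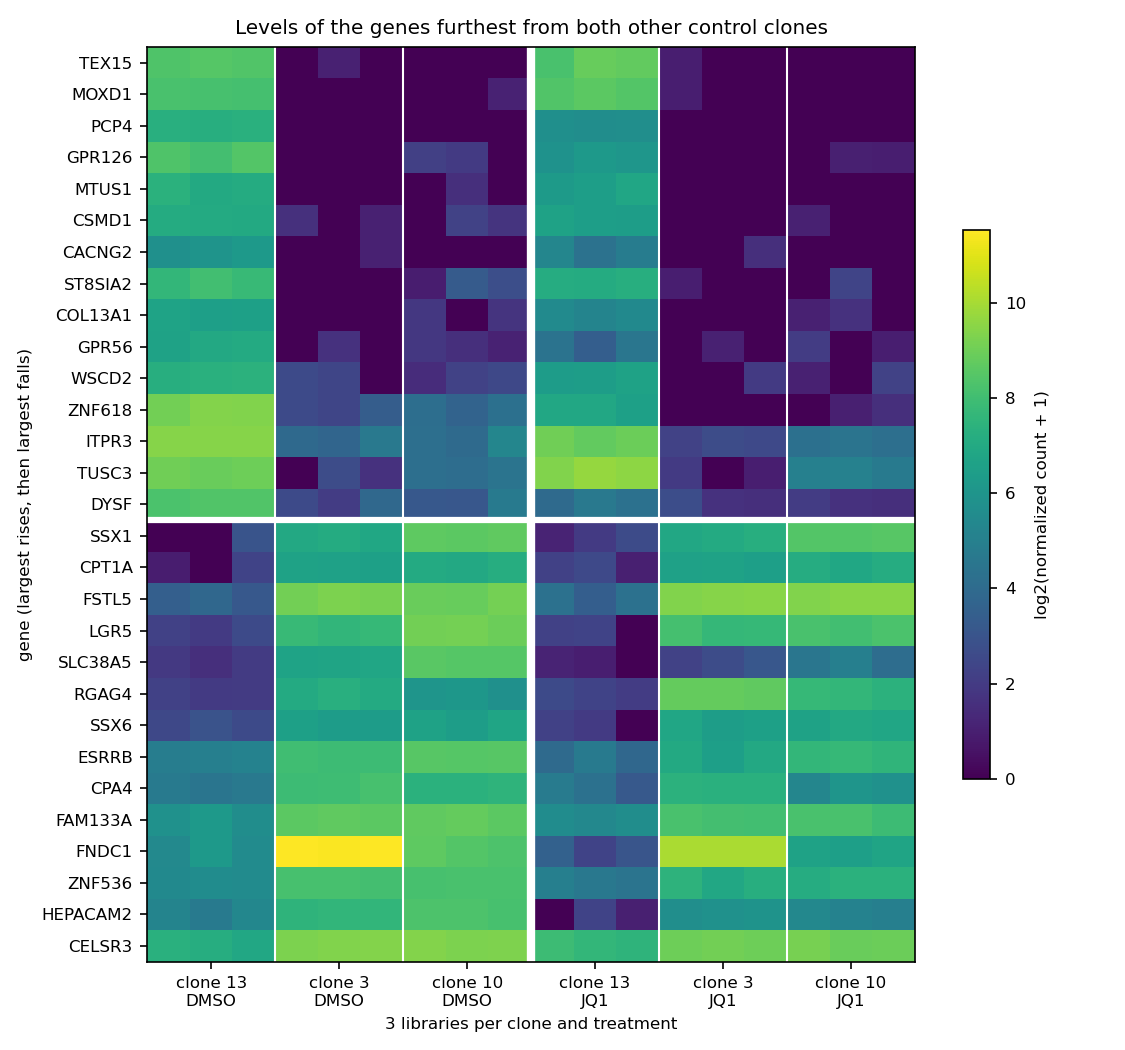
Heat map of log2(normalized count + 1) in single libraries, with 1 row per gene (the largest rises, then the largest falls) and 3 columns per clone and treatment. Rows such as PCP4 (at least 302-fold higher in clone 13) are bright in all clone 13 libraries and dark elsewhere, and the lower rows show the opposite with DMSO. With JQ1 the contrast of some lower rows is weaker, and SLC38A5 is low in all 3 clones.

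The knockout clones were set beside these genes as further clones of the line. Of the 15 largest rises, 8 reached a mean of 10 normalized counts in at least 1 knockout clone with DMSO, and 4 did so in all 3. TEX15 averaged 127 in knockout clone 12, 0.677 in clone 15 and 187 in clone 2-1, and MTUS1 260.3 in knockout clone 12, 0 in clone 15 and 285 in clone 2-1. Both were thus present in clones 12 and 2-1 and near 0 in clone 15. ITPR3 averaged 1256 in knockout clone 12, 869.7 in clone 15 and 622 in clone 2-1, each near or above the level of clone 13. MOXD1 and PCP4 stayed under 2 in all knockout clones. Of the 15 largest falls, 7 reached 10 in all knockout clones and 3 in none. LGR5 averaged 5337 in knockout clone 12, 1401 in clone 15 and 1139 in clone 2-1 and CPA4 3087 in knockout clone 12, 3019 in clone 15 and 2362 in clone 2-1, all above the control clones, while SSX1 averaged 1.09 in knockout clone 12, 3.84 in clone 15 and 5.71 in clone 2-1. The knockout clones differ from the controls in NEUROD1 as well as in clone, and these cannot be told apart here.

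Clustered protocadherins are neural adhesion proteins that a cell selects from large gene arrays. In clone 13 they were called higher for 14 of 38 tested members (36.8%) and lower for 0, beside 15.6% and 14.8% of all genes. Their median difference from the mean of the other clones was 0.56 on the log2 scale, beside 0.01 over all genes tested. Most of these calls lay in 1 array. Of 14 tested genes of the beta array, 12 were called higher, and all 14 had means above those of clone 3 and of clone 10 (median differences 1.23 and 1.30). In the alpha array 0 of 10 and in the gamma array 2 of 14 were called higher (median differences from clones 3 and 10 of 0.24 and 0.14 for alpha, and of 0.22 and 0.52 for gamma). PCDHB11 had 160.4, 153 and 156 normalized counts in clone 13, against 44.8, 39.3 and 45.6 in clone 3 and 23.1, 41.97 and 37.8 in clone 10. PCDHB16 had 137, 129.6 and 127 normalized counts in clone 13, against 50.9, 38.3 and 55.1 in clone 3 and 41.8, 43.9 and 43.5 in clone 10. PCDHB12 had 220, 217 and 231 normalized counts in clone 13, against 70.3, 80.8 and 69.99 in clone 3 and 116, 81.99 and 81.3 in clone 10. By the rule for a call, no clone 13 library overlapped the others for these genes. These genes are close copies of each other, so reads can be shared among them and single values are uncertain.

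The beta genes also share a promoter sequence, shown here because 12 of them were called higher together. Of 14 beta genes with an entry in the RefSeq promoter table (GRCh38.p14, 250 bases before to 50 after the start), 12 hold the run GGTGGCGCTG on either strand, against 97 of 35116 entries of the table (0.276%). That run is the most frequent stretch of 10 bases among these 14 promoters and was found in them. It holds CGCT, the core of the conserved element of clustered protocadherin promoters, which by itself is in 70.0% of all entries. No alpha or gamma entry holds the full run. Capitals mark the run or, where it is absent, the CGCT core. The first lines are beta genes with the run, followed by PCDHB14, a beta gene called higher without it, by PCDHA6, an alpha gene that was not called, and by PCDHGA4, a gamma gene called higher. The 12 beta genes called higher are thus not the same 12 that hold the run, though the stretch of PCDHB14 differs from it only in the last base. PCDHB6 and PCDHB7, beta genes that were tested and not called, are not shown. Whether the run goes with the calls was not tested.
PCDHB16 (chr5:141182291-141182360): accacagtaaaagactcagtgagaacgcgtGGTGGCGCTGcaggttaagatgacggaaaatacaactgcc
PCDHB13 (chr5:141213846-141213915): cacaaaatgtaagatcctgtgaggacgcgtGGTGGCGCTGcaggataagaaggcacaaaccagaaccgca
PCDHB12 (chr5:141208624-141208693): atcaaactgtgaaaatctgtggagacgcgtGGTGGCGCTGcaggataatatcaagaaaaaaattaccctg
PCDHB9 (chr5:141187055-141187124): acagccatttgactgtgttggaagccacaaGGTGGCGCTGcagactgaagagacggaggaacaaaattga
PCDHB10 (chr5:141192280-141192349): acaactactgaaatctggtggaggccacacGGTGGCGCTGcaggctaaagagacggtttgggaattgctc
PCDHB14 (chr5:141223244-141223313): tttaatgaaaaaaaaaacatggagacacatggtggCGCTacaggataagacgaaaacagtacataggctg
PCDHA6 (chr5:140827878-140827947): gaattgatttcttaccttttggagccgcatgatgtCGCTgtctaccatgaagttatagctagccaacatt
PCDHGA4 (chr5:141354941-141355010): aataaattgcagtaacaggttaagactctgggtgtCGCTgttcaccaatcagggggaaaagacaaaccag
All lie on the plus strand of chromosome 5 and end before the annotated start. A match is a description of the letters and not evidence of a bound factor.

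Axon guidance and adhesion genes were called higher for 26 of 57 tested members and lower for 8 (median difference 0.33). The shares of all genes tested were 15.6% higher and 14.8% lower. The 8 lower members were LRRTM2, NCAM1, NRCAM, NRXN3, ROBO3, SEMA3A, SEMA3D and UNC5C. The 4 members described next were all among the higher ones. EPHB2, an ephrin receptor, had 619, 652 and 688 normalized counts in clone 13, against 21.4, 19.1 and 19.1 in clone 3 and 88.8, 98.6 and 118 in clone 10. PLXNA2, a semaphorin co-receptor, had 2763, 2951 and 3048 normalized counts in clone 13, against 572, 619 and 612 in clone 3 and 716, 703 and 720.1 in clone 10 (log2 difference 2.28 from clone 3, SE 0.05, and 2.03 from clone 10, SE 0.05, larger adjusted p = 4.77e-15, limma). CNTN2, a contactin of axons, had 771, 743 and 729.5 normalized counts in clone 13, against 58.1, 52.1 and 59.4 in clone 3 and 258, 219 and 226 in clone 10, and DCX, the microtubule protein doublecortin of migrating neurons, had 1088, 1052 and 1072 normalized counts in clone 13, against 371, 371 and 434 in clone 3 and 346, 348 and 366 in clone 10. Being called, these 4 genes had clone 13 above all 6 other libraries, and clone 3 was lowest for EPHB2 and CNTN2. Among other cadherins, 10 of 28 were higher (35.7%) and 6 lower (21.4%). FAT2, a giant atypical cadherin, had 114, 106 and 88.9 normalized counts in clone 13, against 5.09, 6.38 and 9.54 in clone 3 and 11.6, 6.83 and 4.58 in clone 10, and PCDH1 293, 304 and 289.8 normalized counts in clone 13, against 30.6, 24.5 and 22.3 in clone 3 and 39.1, 57.6 and 45.8 in clone 10. CDH20, a classical cadherin, was nearly absent from clone 13, with 2 reads against 185 in the other 6 libraries (ratio of clones 3 and 10 over clone 13 49.1, interval 13.4 to 408), and with FPKM it was not called (larger adjusted p = 0.371, limma).

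Matrix and mesenchymal genes were higher for 16 of 42 (38.1%) and lower for 6 (14.3%), with a median difference of 0.28. The shares of all genes were 15.6% and 14.8%. SPARC, a matrix glycoprotein, had 1955, 2054 and 2044 normalized counts in clone 13, against 51.95, 32.96 and 37.1 in clone 3 and 151, 144 and 155 in clone 10. COL1A1, a chain of type I collagen, had 2104, 2232 and 2116 normalized counts in clone 13, against 296, 291 and 262 in clone 3 and 438, 419 and 435 in clone 10. Both were far above the other clones in every clone 13 library. COL3A1, the chain of type III collagen, went the other way, with 167, 162 and 162 normalized counts in clone 13, against 4037, 4288 and 4382 in clone 3 and 298, 320.1 and 292 in clone 10. POSTN, the matrix protein periostin, had 50.4, 76.4 and 67.95 normalized counts in clone 13, against 0 in all 3 libraries of clone 3 and 9.77, 4.88 and 6.87 in clone 10. The growth factor receptors PDGFRB and PDGFRA, which mark mesenchymal cells, had 140.3 ± 7.22 and 106 ± 8.72 normalized counts in clone 13 (mean ± SD, n = 3), against 0.708 ± 0.613 and 2.46 ± 2.46 in clone 3 and 23.9 ± 2.49 and 19.3 ± 6.21 in clone 10. Receptor tyrosine kinases and ligands as a list had 11 of 38 higher (28.9%) and 5 lower (13.2%). Among the higher ones was FGFR1, a fibroblast growth factor receptor, with 2308, 2522 and 2351 normalized counts in clone 13, against 859.8, 867 and 918 in clone 3 and 938, 1034 and 909 in clone 10. The 6 fibroblast markers, which include COL1A1 and PDGFRB, summed to 6922 to 7361 in clone 13, 8869 to 9182 in clone 3 and 2296 to 2435 in clone 10. Of these, COL1A2 had 4413, 4726 and 4645 normalized counts in clone 13. Clone 3 had 4524, 4512 and 4525 of COL1A2, and clone 10 had 1461, 1499 and 1607. LUM had 94.4, 88.95 and 73.95 in clone 13. Clone 3 had 11.2, 5.32 and 11.7 of LUM, and clone 10 had 68.4, 70.3 and 76.7. Clone 13 thus overlapped clone 3 for COL1A2 and clone 10 for LUM, and neither was called. The fibroblast marker DCN was at 5.996 to 11 normalized counts in clone 13, at 0 in clone 3 and at 2.29 to 6.83 in clone 10. The part of such cells in these results was not tested.

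S100 proteins and annexins, small calcium-binding and membrane-binding proteins, were called lower for 10 of 18 tested members (55.6%) and higher for 1 (5.56%). Their median difference was -0.71, and 14.8% of all genes were called lower and 15.6% higher. S100A6 had 54.1, 48.3 and 53.96 normalized counts in clone 13, against 12967, 12636 and 12009 in clone 3 and 201, 224 and 200.3 in clone 10. S100A2 had 886, 906 and 902 normalized counts in clone 13, against 11155, 10698 and 10078 in clone 3 and 2533, 2505 and 2498 in clone 10, and S100A4 220, 237 and 261 normalized counts in clone 13, against 784, 746 and 716 in clone 3 and 708, 704 and 721 in clone 10. The 3 clones were well separated for S100A6 and S100A2, with clone 3 highest, while clones 3 and 10 were close for S100A4. The one member called higher, AHNAK, a scaffold that binds S100A10, had 58.7, 48.3 and 53.96 normalized counts in clone 13, against 29.5, 13.8 and 21.2 in clone 3 and 19.6, 27.3 and 18.3 in clone 10, and with FPKM it was not called (larger adjusted p = 0.891, limma). Non-neuroendocrine score genes, which overlap this list, had 6 of 11 lower (54.5%) and 3 higher (27.3%). CAV1, the coat protein of caveolae, was among the lower ones with 123, 95.7 and 117 normalized counts in clone 13, against 405, 378 and 427 in clone 3 and 276, 267 and 278 in clone 10.

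Granins, peptide hormones and their processing enzymes were lower for 7 of 12 (58.3%) and higher for 1 (8.33%), with a median difference of -0.43. Of all genes, 14.8% were called lower and 15.6% higher. ADCYAP1, a neuropeptide, had 196, 213 and 207 normalized counts in clone 13, against 377, 397 and 468 in clone 3 and 564, 489 and 633 in clone 10, and the prohormone convertase PCSK2 338, 380 and 337 normalized counts in clone 13, against 632, 657 and 611 in clone 3 and 881, 891 and 939 in clone 10. PCSK1, another prohormone convertase, was the member called higher, with 3467, 3540 and 3596 normalized counts in clone 13, against 2060, 2154 and 2136 in clone 3 and 2151, 2086 and 2125 in clone 10. Neuroendocrine score genes were higher for 6 of 21 (28.6%) and lower for 3 (14.3%), CHGA, SH3GL2 and SYP. Of these, the endophilin SH3GL2 had 1501, 1513 and 1535 normalized counts in clone 13, against 2532, 2563 and 2571 in clone 3 and 2600, 2415 and 2491 in clone 10, and MYT1, a zinc finger factor of neuronal differentiation, was higher with 201, 162 and 146 normalized counts in clone 13, against 53.99, 76.6 and 58.3 in clone 3 and 60.4, 60.5 and 61.8 in clone 10. Synaptic vesicle genes were higher for 8 and lower for 4 of 40, beside 15.6% and 14.8% of all genes, and with FPKM for 4 and 2. RPH3A, a rabphilin of vesicle exocytosis, had 5511, 5281 and 5365 normalized counts in clone 13, against 2442, 2571 and 2593 in clone 3 and 3246, 3102 and 3196 in clone 10.

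Ion channel genes were higher for 13 of 41 (31.7%) and lower for 5 (12.2%), beside 15.6% and 14.8% of all genes (median difference 0.20). CACNG4, a relative of stargazin, had 114, 119 and 136 normalized counts in clone 13, against 0, 6.38 and 0 in clone 3 and 26.6, 18.5 and 2.29 in clone 10. Neurotransmitter receptors and transporters were higher for 5 of 39 (12.8%) and lower for 6 (15.4%), near the shares of all genes. GRM4, a metabotropic glutamate receptor, had 257, 334 and 269.8 normalized counts in clone 13, against 4.08, 7.44 and 5.30 in clone 3 and 11.6, 17.6 and 12.6 in clone 10, whereas DRD2, the D2 dopamine receptor, had 428, 498 and 452 normalized counts in clone 13, against 1749, 1827 and 1829 in clone 3 and 1155, 1094 and 1091 in clone 10. Neural transcription factors were higher for 13 of 39 (33.3%) and lower for 8 (20.5%). EBF1, a helix-loop-helix factor of neurons and B cells, had 138, 140.2 and 112 normalized counts in clone 13, against 501, 475 and 572 in clone 3 and 485, 473 and 495 in clone 10, and LHX4, a LIM homeobox factor, had 134, 105 and 117 normalized counts in clone 13, against 35.6, 36.1 and 48.8 in clone 3 and 56.9, 48.8 and 45.8 in clone 10. As called genes, each of these 5 separated clone 13 from both other clones.

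Of 26 cancer-testis antigens, 4 were higher (15.4%) and 5 lower (19.2%), near the 15.6% and 14.8% of all genes. PAGE1, an X-linked antigen, had 282, 332 and 294 normalized counts in clone 13, against 1341, 1216 and 1276 in clone 3 and 1143, 1189 and 1283 in clone 10, and SSX2 2.75, 1.93 and 4.996 normalized counts in clone 13, against 27.5, 27.6 and 40.3 in clone 3 and 674, 654 and 527 in clone 10. Of 20 imprinted genes, 7 were higher (35.0%) and 2 lower (10.0%), PLAGL1 and MEST. PLAGL1, a zinc finger growth regulator, had 548, 507 and 454 normalized counts in clone 13, against 1213, 1207 and 1343 in clone 3 and 3473, 3339 and 3453 in clone 10, and MEST 2640, 2837 and 2765 normalized counts in clone 13, against 7025, 6824 and 6954 in clone 3 and 4849, 4875 and 5090 in clone 10. Replication-dependent histone genes were lower for 8 of 25 (32.0%) and higher for 0 (median difference -1.0). HIST2H2BE had 52.2, 50.3 and 57.96 normalized counts in clone 13, against 175, 170.1 and 148 in clone 3 and 297, 302 and 329.7 in clone 10. Histone genes are near-identical copies and mostly lack poly(A) tails, so these values are uncertain.

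For the next lists, the shares of all genes tested were 15.6% higher and 14.8% lower. Cytoplasmic ribosomal protein genes were lower for 29 of 76 (38.2%) and higher for 4 (5.26%), with a median difference of -0.07. RPS3 had 12129, 13301 and 13086 normalized counts in clone 13, against 19163, 18044 and 17942 in clone 3 and 20576, 20239 and 20682 in clone 10, and it lies on chromosome 11. NRF2 and glutathione genes were lower for 10 of 31 (32.3%) and higher for 2 (6.45%), and glycolysis and hypoxia genes for 10 (27.0%) and 4 (10.8%) of 37. Sterol and fatty acid synthesis genes were lower for 9 of 34 (26.5%) and higher for 5 (14.7%). FADS2, a fatty acid desaturase of chromosome 11, had 1357, 1466 and 1478 normalized counts in clone 13, against 3374, 3359 and 3447 in clone 3 and 3758, 3810 and 3744 in clone 10 (-1.24 from clone 3, SE 0.04, and -1.40 from clone 10, SE 0.04). Interferon-stimulated genes were lower for 6 of 23 (26.1%) and higher for 3 (13.0%). OAS1, an oligoadenylate synthetase, had 7825, 8376 and 8194 normalized counts in clone 13, against 27561, 27518 and 27692 in clone 3 and 13424, 13352 and 13548 in clone 10, so that clone 13 was lowest and clone 3 highest, while GBP1, a guanylate-binding protein, had 54.99, 68.7 and 58.96 normalized counts in clone 13, against 2.04, 3.19 and 4.24 in clone 3 and 0, 2.93 and 6.87 in clone 10. BET proteins and P-TEFb subunits were higher for 4 of 10 and lower for 1. BRD2, a BET bromodomain protein on chromosome 6, had 4680, 4914 and 4765 normalized counts in clone 13, against 3385, 3473 and 3584 in clone 3 and 3515, 3402 and 3370 in clone 10.

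**Figure D3:**
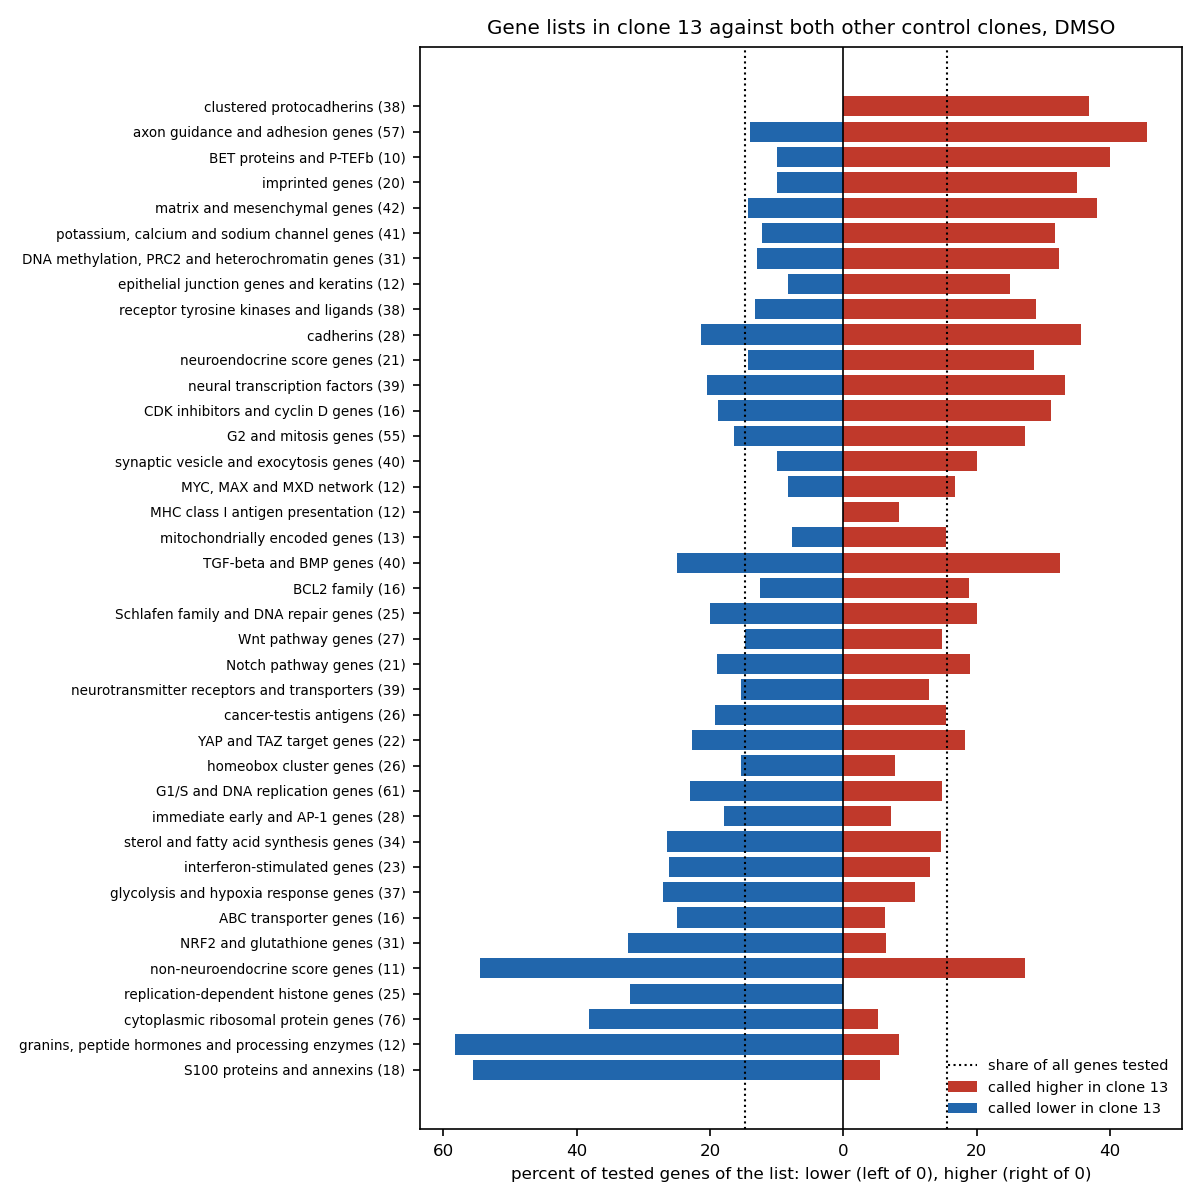
Percent of the tested genes of each list called higher (red, right of 0) and lower (blue, left of 0) in clone 13 with DMSO, for lists with at least 10 genes tested (number in brackets). Dotted lines mark the share of all genes tested, 15.6% higher and 14.8% lower. S100 proteins and granins stand at the bottom and clustered protocadherins at the top.

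The called genes were not spread evenly over the chromosomes. On chromosome 6, 46.4% of 707 tested genes were called higher and 2.40% lower in clone 13 (median differences 0.32 from clone 3 and 0.42 from clone 10). On chromosome 11, 49.7% of 768 were called lower and 3.52% higher (median differences -0.45 and -0.42), and on chromosome 14, 43.9% of 508 were called lower and 3.54% higher (-0.30 and -0.26). Chromosome 1 had 32.0% lower and 10.4% higher, and chromosome 8 had 27.4% higher and 8.75% lower.

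Within chromosomes the calls ran in stretches of neighbouring genes. Genes with a mean of at least 50 were put in order and cut into 285 windows of 40 (a rest shorter than 40 was joined to the last window). In 21 windows at least 40% of genes were called higher and in 40 at least 40% lower, and neighbouring windows of 1 direction joined into 15 stretches. This choice was made with the values in view, so the stretches are a description with no test. The first part of chromosome 8, from FBXO25 to SLC20A2, had 89 of 120 genes called higher and 1 lower (median differences 0.56 from clone 3 and 0.59 from clone 10, with clones 3 and 10 apart by 0.00). TEX15, MTUS1, CSMD1 and TUSC3 of the largest rises are on this chromosome. On chromosome 6, the stretch from PRR3 to ECHDC1 had 231 of 360 higher and 4 lower (0.34 and 0.48), and on chromosome 12 the first 2 windows, ending at MAGOHB, had 56 of 80 higher (0.73 and 0.29).

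The longest stretches with lower expression were on chromosomes 1, 11 and 14. On chromosome 11, from PTPMT1 to GLB1L2, 339 of 443 genes were called lower and 6 higher (median differences -0.54 and -0.52, clone 3 minus clone 10 0.04). On chromosome 1, from USP48 to FAM46C, 312 of 520 were lower and 15 higher (-0.33 and -0.35), and on chromosome 14, from NOVA1 to BCL11B, 159 of 280 were lower and 7 higher (-0.35 and -0.27). The first 3 windows of chromosome 9 had 65 of 120 lower (-0.30 and -0.26). The 15 stretches hold 20.8% of the genes in windows. They hold 27.4% of the genes called higher there and 49.5% of those called lower, and outside them 27.3% of genes were still called. Of the genes called with at least 2-fold, they hold 36.9% of the higher and 32.3% of the lower. The files hold RNA only, and the DNA of these stretches was not examined.

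**Figure D4:**
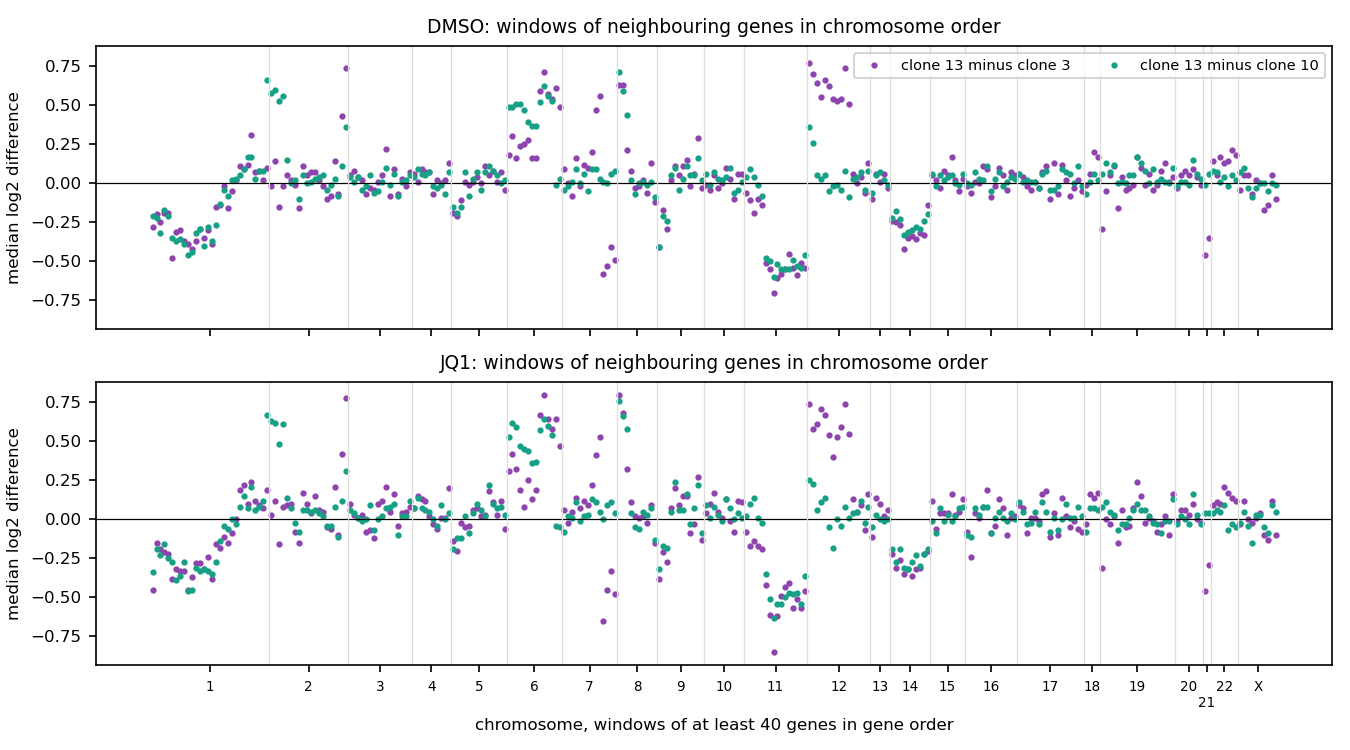
Median log2 difference of clone 13 from clone 3 (purple) and from clone 10 (green) in windows of neighbouring genes, in chromosome order, with DMSO (top) and JQ1 (bottom). Chromosomes 1, 11 and 14 dip below 0 for both colours (chromosome 11 stretch -0.54 and -0.52 with DMSO) and chromosome 6 and the start of chromosome 8 rise above it, at the same places with both treatments.

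Where the 2 colours lie apart in that plot, clones 3 and 10 differed from each other. On chromosome 12 the median difference of clone 13 was 0.45 from clone 3 and 0.05 from clone 10, and on chromosome 21 it was -0.35 and 0.03. Clone 13 was near clone 10 on both. At the start of chromosome 2, clone 13 was near clone 3 and above clone 10, with median differences in the first 4 windows of -0.02, 0.14, -0.15 and -0.02 from clone 3 and of 0.58, 0.60, 0.53 and 0.56 from clone 10.

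The same contrast was made with JQ1. Of 14466 genes tested, 1988 were called higher (13.7%) and 1755 lower (12.1%) in clone 13, and without the first clone 13 library the counts were 2245 and 1912. Of the 2225 genes called higher with DMSO and tested with JQ1, 1420 (63.8%) were called higher again and 7 lower, and of 2140 called lower, 1316 (61.5%) were called lower again and 4 higher. Without the first clone 13 library these were 1485 of 2213 (67.1%) with 5 lower, and 1331 of 2149 (61.9%) with 3 higher. The shared genes make up 71.4% of the higher and 75.0% of the lower calls with JQ1. At a 2-fold distance with DMSO, 196 of 223 tested higher genes and 109 of 154 lower ones were called in the same direction with JQ1, and 0 in the other (180 of 212 and 113 of 163 without that library, again with 0 in the other). All 12 of the 15 largest rises and all 14 of the 15 largest falls that could be tested with JQ1 were called again, as were 12 rises and 15 falls without that library. TEX15 averaged 393 ± 86.1 in clone 13, 0.316 ± 0.547 in clone 3 and 0 in every library in clone 10 (SD, n = 3 each) with JQ1, and FSTL5 15.7 ± 5.09 in clone 13, 685 ± 39.8 in clone 3 and 693 ± 41.8 in clone 10 (SD, n = 3 each). In the 15 stretches, 34.2% to 70.3% of genes were called with JQ1 in the direction seen with DMSO. The chromosome 11 stretch had 288 of 441 genes lower with JQ1 (65.3%, median differences -0.54 and -0.51) and the chromosome 8 stretch 83 of 118 higher (70.3%, 0.63 and 0.69). The chromosome 12 stretch had 37 of 79 higher (46.8%). In 4 stretches the share was under 40%, at 34.2% from WASH7P to DNAJC16 and 35.0% from ADIPOR1 to C1orf74 on chromosome 1, 37.5% on chromosome 2 and 35.0% on chromosome 5. Without the first clone 13 library, 12 stretches in place of 11 reached 40%, with 68.3% on chromosome 11, 70.3% on chromosome 8 and 44.3% on chromosome 12.

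Whether the difference of clone 13 from the mean of clones 3 and 10 changed with JQ1 was tested as an interaction, JQ1 minus DMSO. It was called for 1107 of 14706 genes (7.53%). Without the first JQ1 library of clone 13 it was called for 1650, without the second for 1395 and without the third for 825. The list counts below leave out the first library only. Most genes of the G2 and mitosis list were among the genes called. All 55 listed genes were tested, and the difference was called more negative with JQ1 for 48 and more positive for 0, with and without the first clone 13 library. With JQ1, 39 of 55 were called lower in clone 13 and 0 higher (37 and 2 without the first clone 13 library), beside 12.1% and 13.7% of all genes. By their means, 50 lay below both other clones. With DMSO, 9 were lower (16.4%) and 15 higher (27.3%), beside 14.8% and 15.6% of all genes, though with FPKM 7 were lower and 6 higher. The median difference from the mean of clones 3 and 10 was -0.46 with JQ1 and 0.04 with DMSO, beside 0.02 and 0.01 over all genes tested.

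KIF2C, a kinesin that depolymerizes microtubules at centromeres, had the most negative JQ1 difference of the list. With JQ1 it had 841, 917 and 957 normalized counts in clone 13, against 1878, 1808 and 1968 in clone 3 and 1811, 1929 and 1856 in clone 10 (log2 difference -1.06 from clone 3 and -1.04 from clone 10, larger adjusted p = 5.82e-08, limma). With DMSO it had 2361, 2677 and 2641 normalized counts in clone 13, against 3305, 3332 and 3393 in clone 3 and 3747, 3890 and 3653 in clone 10. The interaction was -0.58, SE 0.06 (adjusted p = 5.62e-06, limma), so clone 13 was lower with both treatments and further below with JQ1. CDCA8, the chromosomal passenger protein borealin, had 711, 693 and 719.7 normalized counts in clone 13, against 1550, 1408 and 1555 in clone 3 and 1242, 1318 and 1335 in clone 10 with JQ1, and 1623, 1787 and 1695 normalized counts in clone 13, against 2347, 2249 and 2436 in clone 3 and 2423, 2308 and 2508 in clone 10 with DMSO (interaction -0.50, SE 0.06). TOP2A, the topoisomerase of dividing cells, changed sides. With JQ1 it had 3802, 4517 and 4364 normalized counts in clone 13, against 4968, 5341 and 5545 in clone 3 and 4678, 5272 and 5009 in clone 10, and with DMSO 13937, 14190 and 14348 normalized counts in clone 13, against 10408, 10367 and 10668 in clone 3 and 11064, 10858 and 11177 in clone 10 (interaction -0.68, SE 0.06, adjusted p = 1.1e-06, limma). TTK, a kinase of the spindle checkpoint, had 696, 738 and 780 normalized counts in clone 13, against 696, 747 and 792 in clone 3 and 641, 692 and 699.9 in clone 10 with JQ1, where the clones overlapped, and 1615, 1647 and 1627 normalized counts in clone 13, against 1011, 1069 and 1184 in clone 3 and 1227, 1070 and 1139 in clone 10 with DMSO, where clone 13 was highest. By their means, 54 of 55 genes were lower with JQ1 than with DMSO in clone 13, 52 in clone 3 and 54 in clone 10. The median difference of the 55 genes, JQ1 minus DMSO, was -1.29 in clone 13, -0.76 in clone 3 and -0.90 in clone 10 on the log2 scale.

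**Figure D5:**
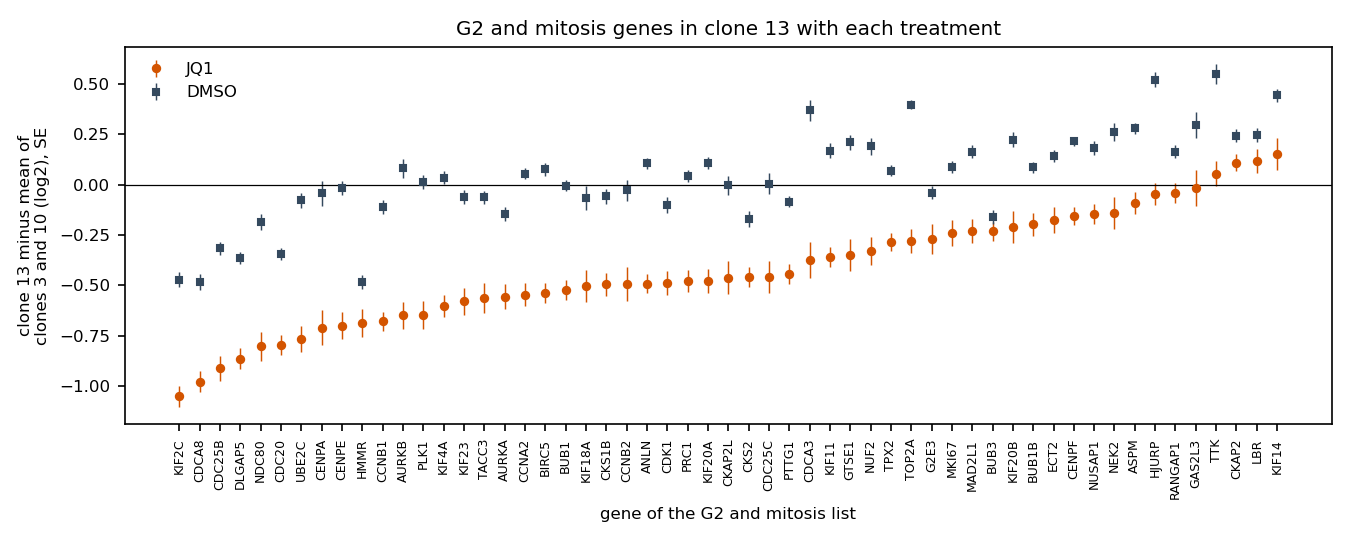
Difference of clone 13 from the mean of clones 3 and 10 (log2, with SE) for the 55 genes of the G2 and mitosis list, with JQ1 (orange circles) and with DMSO (dark squares), ordered by the JQ1 value. JQ1 values run between -1.05 and 0.15 and lie under the DMSO value of the same gene, and DMSO values run between -0.48 and 0.55.

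Of the genes called in opposite directions, ARL6IP1, FTL, GTSE1, MAD2L1, PRR11, TICRR and TOP2A were lower with JQ1 and higher with DMSO, and DUSP6, E2F2, NXPH1 and RNF152 were higher with JQ1 and lower with DMSO. They are named because there are few of them, after their values were seen, and MAD2L1, PRR11, TICRR and NXPH1 were not called in opposite directions without the first clone 13 library. DUSP6, a phosphatase of ERK kinases, had 2494, 2600 and 2628 normalized counts in clone 13, against 1745, 1602 and 1728 in clone 3 and 1990, 1874 and 1793 in clone 10 with JQ1, and 757, 735 and 768 normalized counts in clone 13, against 1783, 1905 and 1745 in clone 3 and 1146, 1111 and 1128 in clone 10 with DMSO (interaction 1.45, SE 0.06, adjusted p = 3.04e-12, limma). OAS1 had 1477, 1517 and 1527 normalized counts in clone 13, against 2412, 2396 and 2465 in clone 3 and 1540, 1565 and 1557 in clone 10 with JQ1, where clone 13 still lay lowest and clone 10 came close to it, and the interaction was 0.88, SE 0.04. CDKN1A, the CDK inhibitor p21, had 16185, 14424 and 16175 normalized counts in clone 13, against 18915, 18206 and 18080 in clone 3 and 12736, 12270 and 12801 in clone 10 with JQ1, between the other clones, and 5012, 5166 and 5311 normalized counts in clone 13, against 3983, 3949 and 3673 in clone 3 and 3566, 3634 and 3503 in clone 10 with DMSO, above both. NEUROD1 had 6364, 5939 and 6842 normalized counts in clone 13, against 8692, 8505 and 8461 in clone 3 and 6432, 6359 and 6230 in clone 10 with JQ1, so that clone 3 was highest there, and the interaction was -0.33, SE 0.05 (adjusted p = 0.00032, limma).

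Of all genes tested with JQ1, 13.7% were called higher and 12.1% lower, against 15.6% and 14.8% with DMSO. Axon guidance genes, with 26 of 57 higher and 8 lower with DMSO, were counted with JQ1 as well. They were higher for 25 of 55 and lower for 5, clustered protocadherins higher for 10 of 28 and lower for 0 (10 of the 12 tested beta genes), S100 proteins and annexins lower for 8 of 16 and higher for 1, and granins lower for 7 of 12 and higher for 1. Replication-dependent histone genes were lower for 19 of 33 and higher for 0, and HIST2H2BE had 699.8, 710.4 and 644 normalized counts in clone 13, against 2330, 2211 and 2346 in clone 3 and 3418, 3500 and 3345 in clone 10. Ribosomal protein genes were lower for 37 of 76 and higher for 1. Without the first clone 13 library, axon guidance genes were higher for 27 of 55 and lower for 5, and clustered protocadherins higher for 9 of 27, all 9 of them among 12 tested beta genes. S100 proteins and annexins were then lower for 8 of 17 and higher for 0, granins lower for 8 of 13, histone genes lower for 23 of 33, and ribosomal protein genes lower for 48 of 76 and higher for 1. In other lists the balance of calls was not the same with both treatments. With JQ1, the counts of neural transcription factors and of G1/S and DNA replication genes were near the shares of all genes. Neural transcription factors were higher for 5 of 39 and lower for 7 with JQ1, against 13 and 8 of 39 with DMSO. Interferon-stimulated genes were higher for 5 of 21 and lower for 2 with JQ1, against 3 and 6 of 23 with DMSO. Neurotransmitter receptors and transporters were higher for 10 of 36 and lower for 2 with JQ1, against 5 and 6 of 39 with DMSO. G1/S and DNA replication genes were higher for 11 of 61 and lower for 7 with JQ1, against 9 and 14 of 61 with DMSO, and immediate early and AP-1 genes were higher for 7 of 29 and lower for 2, against 2 and 5 of 28. Without the first clone 13 library the JQ1 counts of these 5 lists were 6 and 7, 4 and 2, 10 and 1, 11 and 7, and 6 and 3, in the same order. These differences between treatments were not tested for the lists.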

How the data were processed

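RNA was made into stranded poly(A) libraries with the TruSeq kit named in the labels' protocols. The submitters' processing notes list cutadapt, STAR, RSEM and hg19, with no versions. The deposited signal values are, by the name the authors gave the table, gene counts normalized by DESeq2 size factors. Dividing them by the value of 1 read gave whole numbers for 100% of values (tolerance 1e-06). The authors' FPKM table, a second deposited unit, served only as an alternative.

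Genes with a mean of at least 10 normalized counts over the libraries of a fit were tested on log2(normalized count + 1) with limma 3.58.1 (trend, R 4.3.3) and clone as a factor, and p-values were adjusted by Benjamini-Hochberg within each contrast. On the recovered reads, edgeR 4.0.16 called 2338 genes higher and 2228 lower with DMSO, and DESeq2 1.42.0 called 2155 and 2056. The fitting was tested on simulated data. Chromosomes and gene order came from GENCODE 29 for 97.1% of tested genes, and promoters from the RefSeq table (GRCh38.p14). Intervals for ratios of reads cover counting error only. Tables were handled in Python 3.11.15 and drawn with matplotlib 3.10.9.

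Named genes are the subtype factors, the 15 largest called rises and the 15 largest called falls (mean of at least 50 in clone 13 or in the nearer other clone, accession-like names left out), and up to 4 called members of each list, or 2 of the highest mean where none was called. A few items that this rule names are not reported here. The members and the gene lists were chosen with earlier results of these data known. The alternatives were other pseudocounts, filters, scalings and tools, FPKM, a replicate block, and leaving out each library. No column of the tables was left unmapped, and no pair of replicate libraries agreed within sampling noise.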

Additional observations from a re-analysis of the deposited data

Results flagged for a closer look

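The difference of clone 13 from the mean of clones 3 and 10 was not the same with JQ1 as with DMSO for 42 of the 178 named genes tested, by the interaction in limma (adjusted p between 3.04e-12 and 0.0417). Values are the change of that log2 difference, JQ1 minus DMSO. Over all genes tested, the interaction was called for 1107 of 14706 (7.53%). The named genes were chosen largely by their differences with DMSO, and the same DMSO values enter the interaction. Their share is therefore no result about the named genes as a set.

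Among the largest rises and falls the values were DYSF (-2.64), SLC38A5 (2.93), RGAG4 (-1.39), FNDC1 (-1.09), HEPACAM2 (-1.55) and CELSR3 (0.86). A negative value means that clone 13 lay lower against its sister clones with JQ1 than with DMSO. With JQ1, SLC38A5 had 1.24, 0.981 and 0 normalized counts in clone 13, against 3.79, 5.41 and 7.68 in clone 3 and 22.3, 30.1 and 16.3 in clone 10, so its levels were low in all 3 clones. DYSF was lower with JQ1 than with DMSO in all 3 clones by its means, averaging 19.4 with JQ1 and 328 with DMSO in clone 13.

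The other genes with a negative value were NEUROD1 (-0.33), PCSK1 (-0.28), PLXNA2 (-0.37), CNTN2 (-1.29), MEST (-0.34), TTK (-0.49), CDCA8 (-0.50), KIF2C (-0.58), TOP2A (-0.68), CDKN1A (-0.44), CDKN2C (-0.39), HES6 (-0.56), LAMB3 (-1.60), FADS2 (-0.53), TM7SF2 (-0.40), FDFT1 (-0.18), ALDOC (-0.89), RPS25 (-0.15), RPS3 (-0.15) and CDH5 (-0.73). Those with a positive value were RPH3A (0.34), PCSK2 (0.55), PCDH1 (0.91), IFI44L (0.65), OAS1 (0.88), EIF2AK2 (0.38), PLAGL1 (0.41), RPA2 (0.24), HIST1H2AC (0.66), BRD2 (0.14), BCL2 (0.65), DUSP5 (0.66), DUSP6 (1.45), TEAD3 (0.52), PRRX1 (0.37) and GSTM3 (0.28). For each gene these rest on 3 libraries per clone and treatment of 1 clone 13. Without the first JQ1 library of clone 13, 39 of the 42 were called in the same direction, and BRD2, HEPACAM2 and PCDH1 were not called.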

How the results depend on the processing

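With DMSO the calls in clone 13 were 2303 higher and 2190 lower. Tested against the mean of clones 3 and 10, in place of each clone, they were 4384 and 3956, since a gene then need not differ from both. With FPKM 1492 genes were called higher and 1828 lower, and the cause was not tested. With a mean of at least 50, the genes at least 2-fold apart were 144 higher and 104 lower, fewer genes being tested. The split of calls was 51.3% higher, 47.3% at equal library totals, 48.5% with TMM and 44.9% with FPKM. Leaving out 1 library at a time gave 2110 to 2281 higher and 2093 to 2234 lower with DMSO, 1686 to 2245 and 1511 to 1912 with JQ1, and 825 to 1650 genes in the interaction. Same-numbered libraries did not pair by their deviations, and the fit with a replicate block gave 2279 higher and 2159 lower with DMSO, 2016 and 1783 with JQ1, and 1133 in the interaction. All 30 of the largest rises and falls kept their call in the 715 gene and alternative combinations run. Of 4335 such combinations over the named genes, 4258 kept direction and call, 76 lost the call, 1 (NEUROD1 against the mean of the other clones) gained it and 0 reversed. Genes with a mean under 10 normalized counts were not tested, so differences among them are not described by these counts.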
